A study of Mus musculus with 45 samples.

Results

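The rows described here are 250 of 23999 rows of exon counts from mouse hepatic stellate cells (HSCs) whose level fell over 12 days in culture while it differed little between the last and the first time point of each of the experiments in mice. They were chosen by their values. Counts were scaled to counts per 1000000 of the library (CPM), the level L of a row in a group was taken as log2(mean CPM + 1), and W, C and V were L after 24 weeks of diet, 8 weeks of CCl4 and 12 days of culture minus L of the control of that experiment. Of all rows, 13336 had L of 3 or more in any group, 4777 of these also had W and C within 0.5 of 0, and the 250 with the lowest V were taken. V ran from -6.96 to -1.38 with a median of -2.14, against a median of 0.36 over the 4777 rows. Rows 6125 and 17822, the last inside the limit, and rows 5482 and 14240, the first outside it, had the same V of -1.38 to 2 decimals, so the edge of the set is a limit of number and not a gap in the values. As W, C and V made the choice, they are given as a description and were not tested.

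HSCs lie between hepatocytes and sinusoids and store vitamin A in lipid droplets in the healthy liver. On injury they lose these droplets, proliferate and turn into contractile myofibroblasts that lay down fibrous matrix, and the same change sets in when they are plated on plastic. Transcripts that go down in culture and not in the diseased liver concern the question of which parts of the change in culture belong to the culture itself.

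All libraries were made from live HSCs of C57BL6/J mice sorted by the autofluorescence of their retinoids before lysis or plating. Cells of the mice that had lost retinoids were therefore not collected, whereas plated cells were harvested without a second sort. In WD, 4 libraries per group came from mice on chow (WD 0w) or after 12, 16 or 24 weeks (12w, 16w, 24w) on Western diet with fructose in the drinking water, all males of the same age at the end. In CCl4, males received corn oil by gavage for 8 weeks (CCl4 0w, 4 libraries) or CCl4 in the oil for 1, 4 or 8 weeks (1w, 4w, 8w, with 3, 4 and 3 libraries). In the in vitro transdifferentiation experiment (IVT), HSCs of healthy mice spent 2 hours in suspension (d0) or were plated on plastic and grown in medium with serum for 1, 4, 8 or 12 days (d1 to d12), with 3 libraries per group. The culture methods speak of technical triplicates and the labels of biological replicates in RNA sequencing, so the p-values in IVT may measure the spread between wells of one preparation. Sorted cells of the mice were lysed at once, while d0 cells had first spent their time in medium and been frozen, and plated cells were harvested in another lysis reagent per the methods. A difference between IVT and the mice, or between d0 and the plated cells, therefore cannot be told apart from a difference in handling.

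Total counts per library were between 2318311 and 7576527, and 3 counts, taken as the limit of detection, corresponded to between 0.396 and 1.29 CPM. Such limits cover counting error only. The identifiers of the rows did not go with their counts: of 10 genes that every cell uses, 3 had a mean count below 1, as had 32.4% of all rows. The rows are therefore given by their line number in the tables, no gene is named, and the cell type could not be checked by its markers. Lengths are also unknown, so CPM was compared within a row and not between rows. Between libraries of a group the mean chi-square per row, which is 1 for sampling noise alone, was between 1.08 and 1.98 in IVT d1 to d12, between 4.52 and 15.44 in d0 and between 3.53 and 71.18 in the mice, so no library was a copy of another, and the cultures were closer to each other than the mice were. At d0 the library B stood apart, with 13.47 and 15.44 against A and C and 4.52 between A and C.

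In culture the members fell early and then slowly. Their median L was 6.08 at d0, 4.54 on d1, 4.10 on d4, 3.80 on d8 and 3.72 on d12. Relative to d0 the median change was -1.39 on d1 (quartiles -2.35 and -0.80), -1.82 on d4, -1.90 on d8 and -2.14 on d12. The median over all 13336 rows with L of 3 or more was 0.23 above d0 on d1 and 0.32 above it on d12. With TMM factors within IVT that second value was 0.09 and the median V of the members was -2.39, so the scaling moved both by about as much. On d1, 166 of the members were 1 or more below d0, on d4 221 and on d8 242. In all 250 members every d0 library was above every d12 library, a separation that the choice of the rows favours. A lower share of a transcript in these bulk samples can come from fewer cells that hold it or from less of it per cell, which cannot be told apart. The heat map of members by group shows the early fall at the right and, at the left, levels in the mice that mostly lay below d0 as well.

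**Figure D1:**
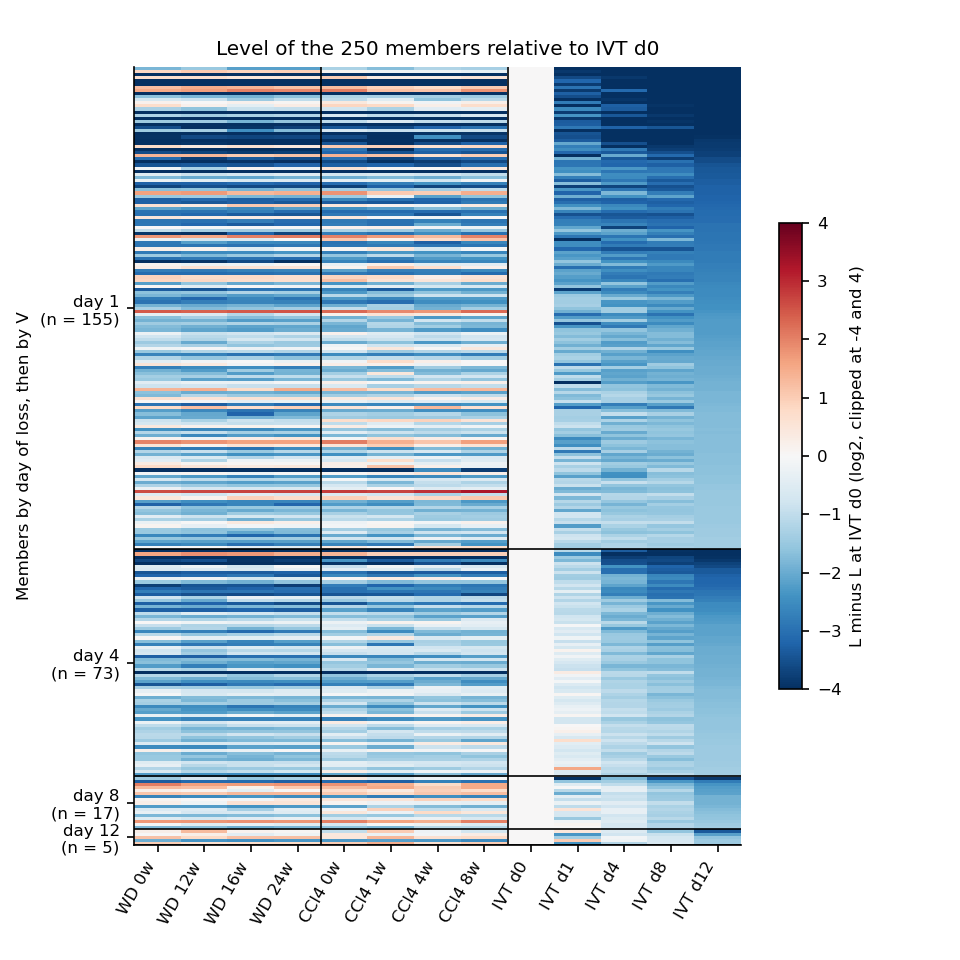
Level of each of the 250 members (lines) in each of the 13 groups (columns) as L minus L at IVT d0, in log2 units, blue for below and red for above d0. Members are sorted by day of loss (155, 73, 17 and 5 members for day 1, 4, 8 and 12) and then by V; IVT d0 is 0 by construction, and most lines are blue in the 8 groups of mice as well as in culture.

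The deepest falls ended at a few CPM. Row 5787 had the lowest V, with 699, 626 and 857 CPM in the d0 libraries A, B and C, and 7.15, 7.22 and 6.94 CPM on d1. It then stood at 25, 25.9 and 19.9 CPM on d4 and ended at 5.40, 5.55 and 3.58 CPM on d12. The 3 libraries of each day lay close together and no day overlapped with d0. In mice the same row had between 97.4 and 322 CPM in WD and between 188 and 399 CPM in CCl4, so it was below d0 in every library and above each culture from d1 on.

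Row 22618 had levels in mice that overlapped with d0 or exceeded it. Its d0 libraries had 297, 262 and 348 CPM, its d1 libraries 21.5, 20.2 and 17.8 CPM and its d12 libraries 1.66, 1.71 and 1.72 CPM. Between 461 and 744 CPM were found in the WD libraries and between 173 and 452 CPM in those of CCl4. Here every library of the mice was far above every culture. Row 20955 had the same form, with 160, 123 and 215 CPM at d0, between 141 and 426 CPM in mice and 2.08, 2.56 and 2.25 CPM on d12.

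Row 13052 showed the opposite in mice. It had 215, 8.93 and 167 CPM at d0, where library B was far below the other libraries, and 7.46, 4.81 and 6.03 CPM on d1. No library of the mice exceeded 0.414 CPM, which is below the limit of detection, and on d12 it had 0.415, 0.427 and 0 CPM. Row 3061 likewise had 72.9, 51.1 and 44.1 CPM at d0 and at most 0.937 CPM in the mice, apart from 3.43 CPM in library C of WD 16w. What fell in culture in these rows was a level found at d0 and not in HSCs lysed directly after sorting.

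Rows 5530, 17038 and 11805, chosen after their values were seen, were the 3 members with no count in any d12 library. They had mean d0 levels of 7.44, 7.23 and 2.67 CPM. Taken against the mean limit of 3 counts per d12 library, 0.413 CPM, they were at least 18.0-fold, 17.5-fold and 6.47-fold lower on d12. In all, 33 members had a mean d12 level below that limit. At the other end, 5 members had L below 3 at d0, between 1.65 and 2.69, and entered through a higher level in another group (rows 2860, 7239, 11805, 15938 and 22003).

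The day of loss was set as the first day from which a row stayed at or past the midpoint of its final fall in L. It was day 1 in 155 members (62.0%), day 4 in 73 (29.2%), day 8 in 17 (6.8%) and day 12 in 5 (2.0%). The largest fall between neighbouring days lay between d0 and d1 in 183 members, between d1 and d4 in 56, between d4 and d8 in 8 and between d8 and d12 in 3. The step from d0 to d1 is also one from frozen cells in suspension to plated cells, and these cannot be told apart. As d0 chose the members, a high d0 favours an early day of loss. The same shares over other rows that fell as far are not given. Members lost by day 1 had a median change of -2.06 on d1 and -2.41 on d12, so little was added later. For those lost by day 4 it was -0.62 on d1, -1.35 on d4 and -1.94 on d12. Loss by day 8 went with a median of -0.67 on both d1 and d4, -1.34 on d8 and -1.88 on d12. The plot of median change by day of loss shows these classes as curves that start apart and come closer by d12.

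**Figure D2:**
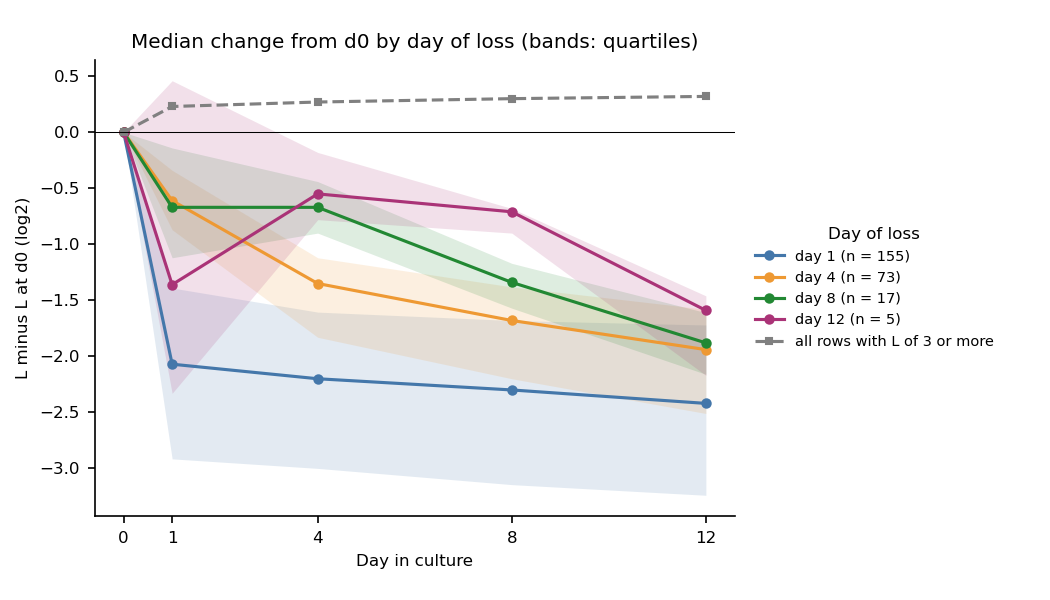
Median L minus L at d0 (log2) against the day in culture for members lost by day 1 (n = 155), 4 (n = 73), 8 (n = 17) and 12 (n = 5), with bands from the lower to the upper quartile, and for all 13336 rows with L of 3 or more (grey). The class lost by day 1 was at -2.06 on d1, whereas the class lost by day 12 was at -1.36 on d1 and returned to -0.55 on d4.

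The fall was not steady in every row. Only 81 members fell in each of the 4 steps, 139 were lowest on d12, 49 on d8, 37 on d4 and 25 on d1. A higher level on d4 than on d1 was seen in 62 members, and 29 of them gained 0.5 or more. On d1, 13 members were above d0, and rows 11395, 4508, 14661 and 15938, chosen after their values were seen, were above it by 0.5 or more.

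Among members lost by day 1, row 1637 had 705, 862 and 687 CPM at d0 and 335, 340 and 323 CPM on d1. It stayed between 249 and 270 CPM in all later cultures. Row 4151 went from 740, 831 and 622 CPM to 285, 267 and 320 CPM on d1 and lay between 118 and 150 CPM from d4 on. In both rows the d0 libraries did not overlap with d1, and d1 did not overlap with later days.

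Row 2588 and row 11002 were lost by day 4. The former had 861, 771 and 1020 CPM at d0, 406, 415 and 410 CPM on d1, 236, 254 and 271 CPM on d4 and 160, 171 and 169 CPM on d12. Levels of row 11002 were 609, 570 and 537 CPM at d0, 394, 420 and 408 CPM on d1, 222, 229 and 220 CPM on d4 and 169, 176 and 167 CPM on d12. Each of these days was below the day before it in every library. Row 18382 followed the same course from 586, 481 and 673 CPM at d0 to 105, 96.3 and 98.9 CPM on d12.

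Some rows lost by day 8 or 12 dipped on d1 and came back. Row 20943 had 122, 142 and 141 CPM at d0, 56.9, 66.1 and 61.7 CPM on d1, 108, 108 and 106 CPM on d4, 63.5, 58.0 and 60.9 CPM on d8 and 34.3, 26.8 and 27.0 CPM on d12. A dip also preceded the end in row 15824, with 40.0, 42.8 and 45.1 CPM on d1, 79.9, 76.7 and 81.5 CPM on d4 and 40.3, 39.0 and 38.8 CPM on d12. In row 4625 there was none, as it had 56.9, 53.9 and 58.4 CPM on d1, 53.9, 52.5 and 51.8 CPM on d4 and 28.1, 25.2 and 34.5 CPM on d12.

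The 5 members lost by day 12 were rows 17976, 13265, 14661, 7854 and 9842, the last chosen after its values were seen. Row 17976 had 265, 224 and 356 CPM at d0, 54.3, 53.0 and 58.2 CPM on d1, 159, 171 and 159 CPM on d4 and 57.9, 65.2 and 62.6 CPM on d12, so it ended near its level on d1. Row 14661 rose first, from 97.5, 63.4 and 85.2 CPM at d0 to 163, 161 and 174 CPM on d1, and ended at 30.3, 28.2 and 29.4 CPM. Row 7854 was also above every d0 library on d1, with 24.5, 21.9 and 22.2 CPM, and at 0.692, 0.712 and 0.663 CPM on d12. The 5 rows thus had no common course.

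Levels in the mice were lower than d0 for most members. The mean L over the 8 groups of mice was below L at d0 by 1 or more in 151 members (60.4%), within 1 in 85 and above it by 1 or more in 14. The median of this difference was -1.43, with quartiles of -2.41 and -0.32 and a range from -6.95 to 2.79. In the single groups the median ran from -1.57 in WD 12w and WD 16w to -1.19 in CCl4 0w, so controls and treated mice gave similar values. The median over all rows with L of 3 or more was 0.37, and 12.2% of them had d0 above the mice by 1 or more. With TMM factors over all 45 libraries the medians became 0.18 for all rows and -1.64 for the members. Of the 1130 other rows that fell as far in culture but failed the bounds on W or C, 34.5% had d0 above the mice by 1 or more. As the rule takes rows with a high d0 against d12, these shares describe the choice and were not tested. The share of the members includes rows that met the criterion on L only through IVT.

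Read against the mice instead of d0, the end of the culture was closer. L on d12 was within 1 of the mean of the mice in 141 members, below it by 1 or more in 104 (41.6%) and above it by 1 or more in 5. The median of L on d12 minus the mice was -0.68, with quartiles of -1.84 and 0.09. On d12, 138 members were below every group of mice, 80 within their range and 32 above all of them. Already on d1, 90 members were below every group of mice. A loss in culture thus held against d0 for all 250 members, by choice, and against HSCs lysed directly after sorting for 104 of them at a difference of 1 or more. Rows chosen in the same way with the mean of chow and vehicle in place of d0, an alternative added after the data were seen, shared 89 with the members.

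**Figure D3:**
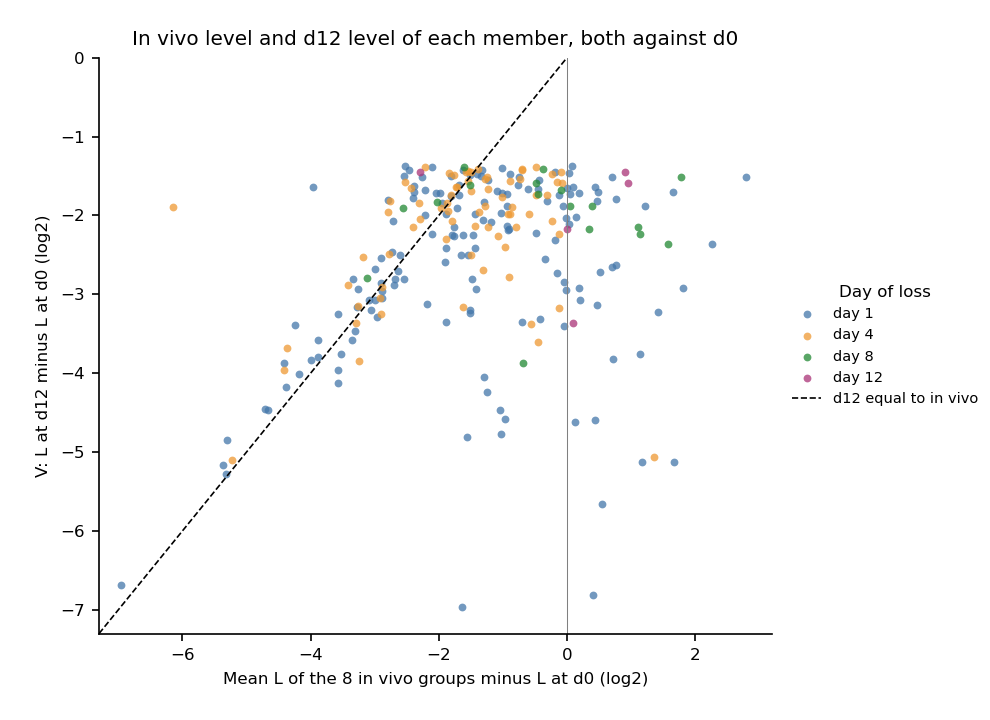
For each member, the mean L of the 8 groups of mice minus L at d0 (horizontal axis, log2) and V, which is L at d12 minus L at d0 (vertical axis, log2), coloured by day of loss. On the dashed line the d12 level equals that of the mice; 141 members lie within 1 of it, and 104 lie 1 or more below it.

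The members with d0 above the mice had a median L of 3.63 in mice, 5.83 at d0, 4.29 on d1 and 3.10 on d12. On d12, 131 of these 151 were within 1 of the mice, 15 were lower and 5 higher. Of the 85 members with similar levels in mice and at d0, the medians were 6.47 in mice, 6.63 at d0, 5.30 on d1 and 4.48 on d12, and 75 ended 1 or more below the mice. The 14 members with d0 below the mice had medians of 6.32 in mice, 4.58 at d0, 2.56 on d1 and 2.24 on d12, and all 14 ended 1 or more below the mice. Loss by day 1 was found in 63.6% of the first class, 58.8% of the second and 64.3% of the third. L stayed below 3 in every group of mice in 64 members, with a median of 3.84 at d0, so their level in the mice was low by any of these groups. They met the criterion of L of 3 or more only through a group of IVT, so a lower level in the mice than in that group was fixed by the choice.

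In row 16173 the mice were furthest above d0. It had 27.2, 21.2 and 21.9 CPM at d0, between 5.17 and 7.76 CPM in all cultures, and between 64.2 and 353 CPM in mice. Row 19696 had 12.8, 20.1 and 10.7 CPM at d0, between 37.8 and 108 CPM in mice and at most 2.49 CPM on d12. Row 15547 had 16.2, 13.4 and 13.2 CPM at d0, between 16.5 and 81.8 CPM in mice and at most 1.14 CPM on d12. In these rows d0 was already below the mice, and d1 to d12 lay lower still.

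Row 9510 lay far below d0 in the mice and fell in culture only after d1. It had 293, 156 and 339 CPM at d0, 328, 318 and 345 CPM on d1, 126, 120 and 123 CPM on d4 and 66.8, 71.2 and 72.4 CPM on d12. In mice it had between 0.633 and 8.13 CPM. Even on d12 its L was 4.25 above the mean of the mice. Row 10955 had 56.9, 73.3 and 53.1 CPM at d0 and at most 1.73 CPM in mice, and on d12 it was back at 0.692, 0.712 and 0.795 CPM. Rows 16396, 8295, 21276 and 6125 were the other members that ended above the mice by 1 or more, by 2.33, 1.04, 1.03 and 1.16 on that scale, and apart from row 6125 they were chosen after their values were seen.

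**Figure D4:**
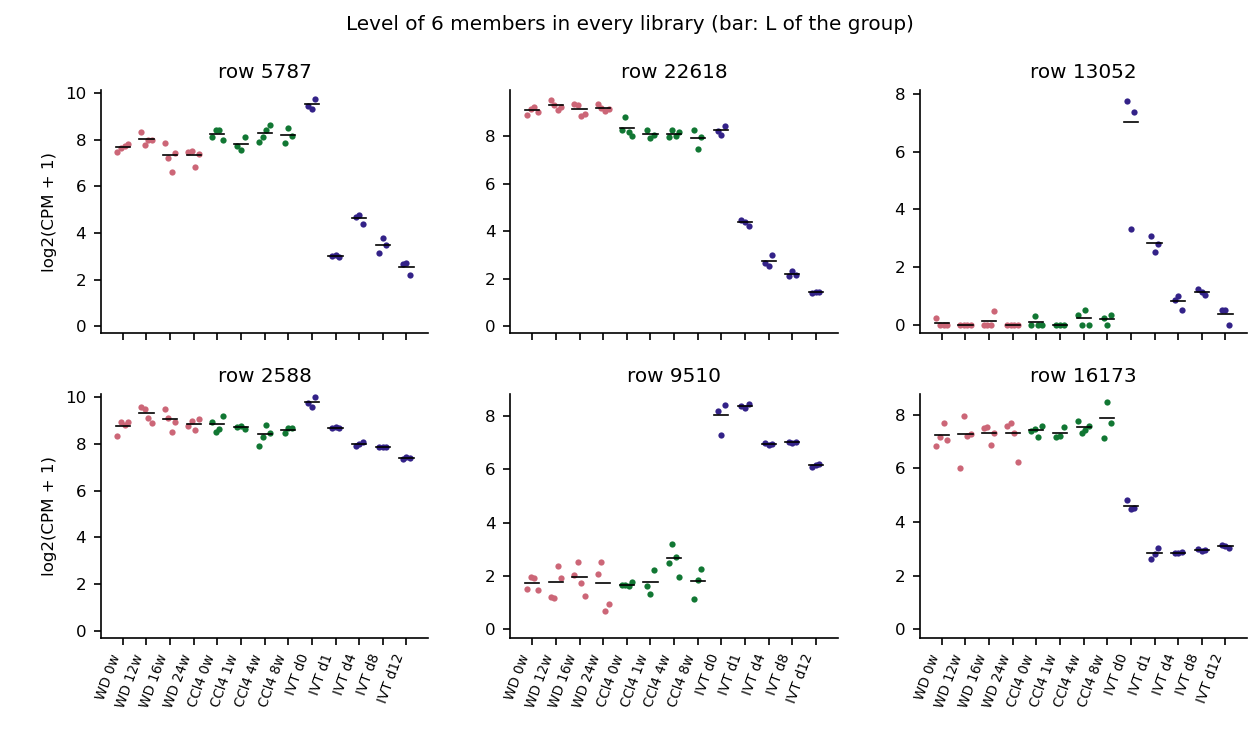
log2(CPM + 1) of 6 members in every library (points) with L of each group (bars), for WD in red, CCl4 in green and IVT in blue. Rows 5787 and 2588 were lower in mice than at d0, row 22618 was level with or above it, rows 13052 and 9510 were near 0 or low in mice, and row 16173 was higher in mice than at d0.

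Within the mice the rule fixed only the last time points against the controls. At the weeks it did not use, L was within 0.5 of the control of the experiment in 226 members (90.4%) at WD 12w, 215 (86.0%) at WD 16w, 179 (71.6%) at CCl4 1w and 183 (73.2%) at CCl4 4w. Over the 4777 rows that met the same bounds these shares were 91.5%, 87.0%, 81.3% and 86.5%, and over all rows with L of 3 or more 61.0%, 43.9%, 66.8% and 51.7%. In 105 members all treated groups of mice were within 0.5 of their controls. The shares of the members include 64 with L below 3 in every group of mice. Rows of these near 0 CPM lie within 0.5 for want of counts. Each member of the set was thus bounded at the ends of the time courses, but not at the weeks between. At CCl4 1w, 45 members were lower by 0.5 or more and 26 higher. Between the controls, chow and vehicle, 177 members were within 0.5, 63 were lower in chow and 10 higher.

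The range of L over the 8 groups of mice had a median of 0.84 and was below 1 in 170 members. It was largest in row 11899, with 39.3, 28.8 and 28.2 CPM at CCl4 1w, 7.85, 12.4, 7.81 and 5.21 CPM at CCl4 0w, and 2.21, 1.98, 13.7 and 7.21 CPM at CCl4 4w. Row 7854 was highest at WD 12w, with 81.6, 26.0, 37.8 and 19.3 CPM against between 9.66 and 35.5 CPM at WD 0w, which overlapped. It had 38.9, 39 and 25 CPM at CCl4 1w and between 5.25 and 12.2 CPM at CCl4 0w. Both were high at 1 week of CCl4 with no overlap with vehicle, a week that the bound on C does not cover. Their closeness to vehicle at 8 weeks was set by that bound, and both were picked for their range. The smallest ranges, 0.14 in row 16137 and 0.23 in rows 13052 and 12084, belonged to rows whose mice were all at or under the limit of detection, so they show absence of counts and not a steady level.

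Tests were made on groups that did not enter W, C or V, with edgeR's quasi-likelihood test over all rows and a false discovery rate (FDR) of 0.05 or less. These groups still counted for the criterion of L of 3 or more in any group, and 1 member, row 15938, passed it only through d1, a group of the first test. Between d1 and d4, 141 of the 250 members (56.4%) were lower and 33 (13.2%) higher on d4, against 31.2% and 33.7% of the 13655 rows tested. The median log2 fold change was -0.57 in the members and 0.01 in all tested rows. All 250 passed the filter on low counts, 29 of them not when d1 and d4 alone were taken. With only these groups in the fit, 150 of 221 members were lower and 40 higher, against 4751 and 4866 of 12532 rows. Since V contains this step, as well as that from d4 to d8, a surplus of lower rows is no independent support for the choice. Of the 151 members with d0 above the mice 91 were lower and 11 higher, of the 85 level with the mice 47 and 17, and of the 14 with d0 below the mice 3 and 5. The differences between these classes were not tested.

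Row 4508 had the smallest FDR among the lower rows. It had 325, 330 and 349 CPM on d1 and 114, 112 and 119 CPM on d4, a log2 fold change of -1.53 ± 0.06 (SE, edgeR FDR 2e-12). Row 13450 and row 4863 were lower by -1.62 and -1.13 (edgeR FDR 4.02e-12 and 3.76e-11). Among the higher rows, row 170 rose from 2.89, 2.41 and 3.17 CPM to 16.5, 13.5 and 15.7 CPM, which is 2.44 ± 0.17 (SE, edgeR FDR 2.35e-09). Row 14391 rose from 0.913, 1.13 and 0.754 CPM to 10.9, 12.2 and 11.1 CPM, which is 3.59 ± 0.26 (SE, edgeR FDR 3.1e-09). Both rows had fallen far on d1, from 67.5, 59.5 and 68.6 CPM and from 39.2, 51.1 and 34.6 CPM at d0, and regained only a part of it.

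Between d4 and d8, 80 members (32.0%) were lower and 17 (6.8%) higher on d8, against 14.2% and 17.7% of all rows tested. Of the 250, 47 did not pass the filter when d4 and d8 alone were taken. With only these groups in the fit, 108 of 203 members were lower and 26 higher, against 3595 and 3636 of 12630 rows. Without the libraries A the counts were 43 and 7 and without the libraries C they were 51 and 4. Over all rows the counts fell as well, from 1944 lower and 2411 higher to 860 and 1485 without A. Without C they were 1039 and 1471. The median log2 fold change was -0.27, and close to 0 over all rows. In 41 members both steps, d1 to d4 and d4 to d8, passed the test as lower, and in 3 both passed as higher. The same counts over all rows are not given, and V contains both steps, so these counts only describe the members. Row 11395 was lower by -0.87 ± 0.09 (SE, edgeR FDR 4.88e-07), from 55.9, 60.9 and 59.2 CPM to 33.9, 28.4 and 33.4 CPM. Rows 14391 and 20943 were lower by -1.98 and -0.81 (edgeR FDR 1.17e-06 and 2.94e-06), so the return of both rows on d4 was followed by a second fall. Row 1963 was higher on d8 by 0.90 ± 0.11 (SE, edgeR FDR 9.6e-06), with 93.5, 104 and 103 CPM on d4 and 181, 190 and 187 CPM on d8. Row 13265 was higher at both steps, by 1.29 on d4 and 0.54 on d8 (edgeR FDR 6.17e-09 and 0.000137). Row 19974 was higher on d8 by 0.89 (edgeR FDR 0.00143), from 14.8, 14 and 12 CPM to 21.6, 23.7 and 30.3 CPM, far below its 316, 468 and 344 CPM at d0. Without the libraries C its log2 fold change was 0.66 and no longer passed (edgeR FDR 0.0777).

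In WD, 16 weeks against 12 weeks gave few calls. Of 198 members tested 6 (3.03%) were higher and 1 (0.505%) lower, against 9.23% and 3.62% of the 13510 rows tested, and 52 members had too few counts in WD for the test. The bound on W favours few calls, and no share of calls over the 4777 rows that met the bounds is given. Shares below those of all rows are thus no sign that the members are steadier. Without the libraries C or without the libraries D edgeR called no member in either direction, with 14 and 20 members at an unadjusted p under 0.05. Over all rows it called 198 higher and 17 lower without C and 328 and 8 without D. DESeq2 on all libraries called 11 members higher and 3 lower, and 1574 and 807 of all rows. At an unadjusted p under 0.05, 30 members differed in the edgeR fit of all libraries. Counts over all rows at that p are not given. The median log2 fold change was -0.08 in the members and -0.10 over all rows. Row 4134 was higher by 1.40 ± 0.28 (SE, edgeR FDR 0.00543), with 8.27, 7.83, 14.9 and 12.8 CPM at 12 weeks and 22.2, 16.8, 43.6 and 38.3 CPM at 16 weeks. Row 16670 and row 15607 were higher by 0.98 and 0.77 (edgeR FDR 0.00788 and 0.0292), and the other higher members, chosen after their values were seen, were rows 5164, 17403 and 19565. The one lower member was row 20943, with 107, 157, 149 and 188 CPM at 12 weeks and 100, 109, 101 and 101 CPM at 16 weeks (log2 fold change -0.59, edgeR FDR 0.0483), whose groups overlapped through 1 library at 12 weeks. This call was lost in 7 of 11 alternatives, with FDR up to 0.299 without the libraries C. At 12 weeks library A was the lowest of the 4 in 140 of the 250 members, and the share over all rows is not given. This library stood apart beyond the members, with a mean chi-square per row of 33.5, 55.78 and 66.93 against B, C and D. Between B, C and D it was 5.25 to 11.39.

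CCl4 at 4 weeks against 1 week gave calls in both directions. Of 208 members tested, 29 (13.9%) were higher and 50 (24.0%) lower, against 22.7% and 21.7% of the 13513 rows tested, and 42 members were not tested. The bound on C may lower the shares of the members, and no share over the 4777 rows that met the bounds is given. The median log2 fold change was -0.16, against 0.03 over all rows. With library totals in place of TMM the members were split evenly, 33 higher and 33 lower, and without the libraries B they were 14 and 29. Of all rows, 3931 were higher and 2247 lower with library totals, and 1903 and 1986 without B. Row 19565 was lower by -1.78 ± 0.23 (SE, edgeR FDR 4.37e-05), with 149, 146 and 128 CPM at 1 week and 36.7, 26.6, 69.6 and 46.4 CPM at 4 weeks. Rows 11395 and 13265 were lower by -2.05 and -0.94 (edgeR FDR 4.97e-05 and 7.03e-05). Row 16010 was higher by 1.59 ± 0.23 (SE, edgeR FDR 8.2e-05), with 10.3, 11.1 and 14.3 CPM at 1 week and 43.0, 43.1, 37.7 and 32.7 CPM at 4 weeks. Rows 10297 and 7417 were higher by 1.00 and 0.84 (edgeR FDR 0.000239 and 0.000241). None of these 6 rows overlapped between the weeks. They were named for the smallest FDR in this same test, so the lack of overlap is favoured by that choice. The share of rows without overlap over all rows is not given. Of the 85 members level with d0, 6 were higher and 28 lower, and of the 109 tested with d0 above the mice 23 and 18. This difference was not tested.

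Summed over the members, the share of all counts was largest at d0. The rule takes rows with a high d0 against d12, so a higher sum at d0 than on d12 describes the choice. V also contains the steps from d1 to d4 and from d4 to d8, so lower sums at these steps are no independent support for it. The sum was 35729 to 36748 CPM at d0, 15328 to 15436 on d1, 10727 to 10826 on d4, 9639 to 9649 on d8 and 8209 to 8372 on d12, so no days overlapped. In mice it lay between 16786 and 24128 CPM in WD and between 18810 and 25817 CPM in CCl4, below d0 and above d1 in every library. The 5 members with the most counts at d0, rows 2588, 1637, 4151, 5787 and 1166, held 10.5% of the members' d0 counts, so the sum did not rest on a few rows. The mean sum on d4 minus that on d1 was -4602 CPM (two-sided exact permutation test, p = 0.1, n = 3 and 3, the smallest p this design allows) and on d8 minus d4 it was -1145 CPM (exact p = 0.1, also the smallest). The difference was -50 CPM for WD 16w minus WD 12w (exact p = 0.971, n = 4 and 4) and -2153 CPM for CCl4 4w minus CCl4 1w (exact p = 0.171, n = 4 and 3). Adjusted over the 4 comparisons the values were 0.2, 0.2, 0.971 and 0.229, so none passed.

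**Figure D5:**
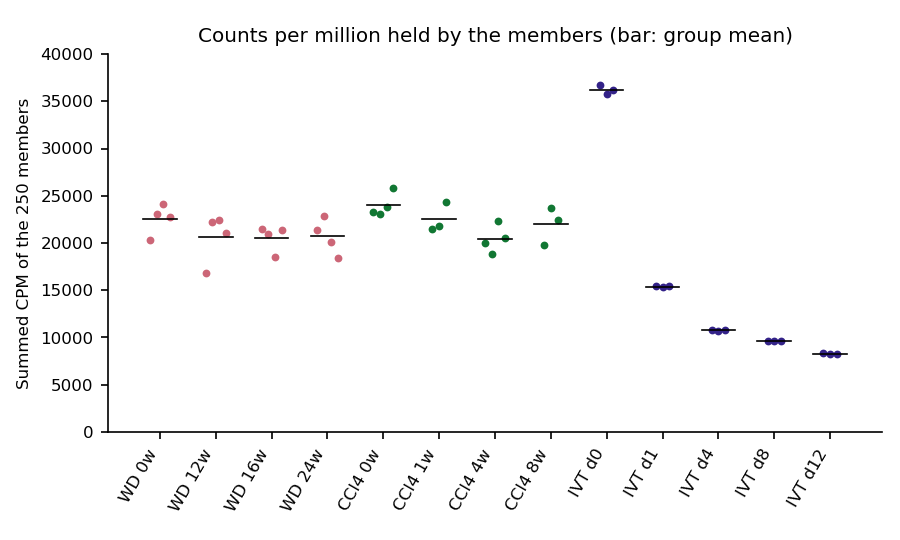
Summed CPM of the 250 members in each library (points) with the group mean (bars), for WD in red, CCl4 in green and IVT in blue. The d0 libraries reach 35729 to 36748, all libraries of the mice lie between 16786 and 25817, and the cultures go from 15436 or less on d1 to 8372 or less on d12.

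To see how far the choice rests on single libraries, rows were chosen again without all libraries of one letter and then measured in the libraries left out, one library against one. Without A, B, C and D, 186, 182, 211 and 206 of the 250 rows were the same. In the libraries left out the median V was -1.91 for A, -1.88 for B and -2.06 for C, against 0.30, 0.31 and 0.38 over all rows with L of 3 or more. V was -1 or lower in 236, 226 and 240 of the rows, a share that was 15.1%, 15.1% and 14.3% over all rows. The values of W and C were less well kept. In the libraries left out W was within 0.5 of 0 in 195, 191, 165 and 130 rows for A, B, C and D, and C in 163, 134 and 177 rows for A, B and C. Over all rows W was within it in 54.3%, 53.9%, 42.7% and 37.1%, and C in 51.7%, 35.9% and 46.4%. The fall in culture was thus seen again in the libraries left out, while part of the closeness to the controls in mice was not. The IVT libraries may be wells of one preparation, and those of d12 differed by little more than sampling noise. A library left out may therefore nearly repeat the others, so this is no independent support for the fall. At d0, library B was 1 or more below both A and C in 17 members and above both by 1 or more in 3. Without the letter B the median V of the 250 members was -2.14, all 250 had V of -1 or lower and 150 had d0 above the mice by 1 or more.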

How the data were processed

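The deposited files hold raw counts of reads on exons per row, without normalization, in a table for each of WD, CCl4 and IVT (45 libraries, 13 groups). The submitters' processing notes name STAR, HOMER and mm10, and per the file headers the authors counted either strand, capped the reads kept at any position and condensed isoforms to genes. All columns were assigned to samples by their titles. The headers of all tables name the same source libraries. Rows were joined by line.

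CPM used column sums and L a pseudocount of 1. The members and the lists were chosen with earlier results of these data known. Tests used edgeR 4.0.16 in R 4.3.3 (TMM, filterByExpr, quasi-likelihood test, Benjamini-Hochberg adjustment over all rows, all groups of an experiment in the fit) on 4 pairs of groups that W, C and V did not use, though the criterion on L did. The SE was taken from the fold change and the F value. The fit was tested on simulated data. Sums were compared by exact permutation tests in scipy 1.17.1 (Python 3.11.15). DESeq2 1.42.0, other scalings, filters, pseudocounts, bounds, a replicate block and leaving out replicates were tried as alternatives.

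Rows named were those with the lowest V (5), the most d0 counts (5 and 3 per day of loss), the extremes of level and range in the mice (3 each), the smallest FDR in each direction (3 each) and those next to the limit of the choice. Gene names, sequences and lengths were not used here.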

Additional observations from a re-analysis of the deposited data

Results flagged for a closer look

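In groups of 4 libraries, the library farthest from the others was compared with the range of the group, for the summed CPM and the 43 named members (236 groups with a mean above the limit of detection). Of these, 14 groups held a library whose gap to its nearest neighbour exceeded Dixon's critical share of the range, and chance alone flags about 1 in 20 groups. None of the summed values did. In CCl4 0w, library D was apart in 5 rows: row 20955 with 426 CPM (others 285 to 302), row 15824 with 62.5 CPM (76.6 to 79.4), row 14661 with 18.4 CPM (14.8 to 15.2), row 19974 with 951 CPM (708 to 738) and row 16670 with 79.1 CPM (100 to 101). Library A of the same group was apart in rows 16010 and 7417, with 30.3 CPM (27.7 to 28.1) and 51.0 CPM (45.8 to 46.2). In CCl4 4w, row 1166 had 244 CPM in library C (151 to 163).

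In WD, library C was apart in row 3061 at 16 weeks with 3.43 CPM (0.397 to 0.842), in row 16010 at 16 weeks with 16.2 CPM (11.8 to 12.3), and in row 15547 with 64.9 CPM at 0 weeks (44.8 to 47.4) and 77.5 CPM at 24 weeks (58.4 to 60.1). Library B was apart in row 20943 at 16 weeks with 109 CPM (100 to 101) and in row 4508 at 24 weeks with 62.4 CPM (57.0 to 57.6).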

How the results depend on the processing

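Of 172 alternative values for the counts, medians and sums, 137 kept their direction and stayed within 1.5 times the count or within the replicate spread. Which rows were taken depended most on the bounds on W and C, since 89 of the 250 were chosen again with bounds of 0.25 and 103 with bounds of 1, and 89 with the mean of chow and vehicle in place of d0 (added after the data were seen). Without each replicate letter 182 to 211 were chosen again. When loss was set as a fall to 0.25 of the d0 CPM or less, 76 members were lost by day 1, 24 by day 4 and 27 by day 12, and 100 never reached it. With TMM factors in IVT, 1 member was lost by day 12. The median of the mice minus d0 was -1.64 with TMM factors over all libraries, -1.21 with a pseudocount of 5 and between -1.46 and -1.35 without a replicate.

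On d8 against d4, 26 members were higher with only the compared groups, and without a replicate 4 to 14 were higher and 43 to 85 lower. For WD 16w against 12w, higher members were 11 with DESeq2, 2 with only the compared groups and 0 to 7 without a replicate. Lower members were 3 with DESeq2, 0 with library totals, DESeq2 size factors, no filter or only the compared groups, and 0 to 4 without a replicate. For CCl4 4w against 1w, library totals gave 33 lower and 33 higher members, and all rows 3931 higher and 2247 lower against 3072 and 2927. Without a replicate 14 to 25 were higher and 29 to 45 lower. Over all rows, leaving out a replicate gave 1471 to 2436 higher and 860 to 2092 lower on d8 against d4. It gave 198 to 1448 and 8 to 512 for WD, and 1903 to 2830 and 1986 to 2625 for CCl4. The causes of these changes were not tested. The sum in WD 16w minus 12w reversed to 311 CPM without the 10 members with the highest counts, and was between -1647 and 1234 CPM without a replicate. Its value without B was 363 CPM. No named row reversed in any test, but calls of 5 named results were lost in 16 of 230 values: row 19974 on d8 against d4 without C, and in WD rows 4134 and 16670 without C or D, row 15607 in 4 settings and row 20943 in 7.

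With the replicate letter as a replicate block, 8 members were higher and 7 lower for WD 16w against 12w, and the other comparisons stayed within 1.5 times. Deviations of libraries with the same letter had correlations from 0.012 to 0.047 in the compared IVT groups, from -0.374 to 0.224 in WD and from -0.083 to 0.074 in CCl4. The highest value against another letter was 0.002 to 0.026 in IVT, 0.077 to 0.319 in WD and -0.032 to 0.17 in CCl4. In IVT the same letter was slightly higher, except B on d8 against d4 (0.025 against 0.026). Deviations there were close to sampling noise, so low correlations cannot exclude that the letters pair the libraries.

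Depth limited what could be said of 52 members in WD and 42 in CCl4, which were not tested for want of counts. With 3 libraries per group, sums could not reach a p below 0.1. The d0 libraries differ in handling from the mice and from the plated cells, which cannot be told apart from a change in the cells, and rows cannot be tied to genes.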
